A study of Mus musculus with 2 samples.

Results

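The genes described here are 46 nuclear genes for mitochondrial chaperones, proteases, protein import, cristae, fusion, fission and porins, measured in the adrenal gland of the mouse. They were matched by name, by a rule that uses no measured value: the gene identifiers in the deposited gene tables were translated to symbols and matched to a list of 46 symbols. All 46 were found among 43346 Ensembl genes. Polyadenylated RNA was measured from 1 biological sample of adult female C57BL/6J adrenal gland, aged 10 weeks, with no treatment or genetic change given in the labels. The number of animals behind the sample is not stated here. The 2 libraries, called replicate 1 and replicate 2, are technical replicates of that 1 biological sample, and the second was made in 2015, after the first. There is therefore 1 group, and the only comparison the design allows is between the 2 libraries. A p-value here compares those libraries, covers counting error only, and says nothing of other animals.

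Most mitochondrial proteins are made in the cytosol and enter through a channel of the outer membrane (the TOM complex), pass the intermembrane space with the help of small Tim chaperones, and are placed into or across the inner membrane by the TIM22 and TIM23 complexes. In the matrix a peptidase removes the targeting sequence, chaperones fold the protein, and ATP-dependent proteases degrade what is damaged, while dynamin-related GTPases fuse and divide the organelle. The adrenal cortex makes steroid hormones in steps that take place partly inside mitochondria, and its cells are rich in these organelles.

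The total was 28267651 expected counts in replicate 1 and 17376660 in replicate 2, of which 13260900 and 14716667 came from nuclear genes. Genes of the mitochondrial genome held 40.06% of the counts in replicate 1 and 10.64% in replicate 2, and their nuclear copies another 13.03% and 4.66%. None of the 46 genes is encoded in the mitochondrial genome. TPM values, the deposited level per transcript length, sum to 1 fixed total, of which nuclear genes had 174936 TPM in replicate 1 and 616382 TPM in replicate 2. A TPM below is as deposited unless it is called nuclear-rescaled, which means that the same total was shared out over nuclear genes alone. The 7 cortex genes looked up (Star, Cyp11a1, Cyp11b1, Cyp21a1, Hsd3b1, Nr5a1 and Mc2r) summed to 7305 TPM in replicate 1 and 35690 in replicate 2. All 7 stood at 1 TPM or more in each library. Of 5 medulla genes 4 did, and Pnmt, the adrenaline-making enzyme, had 0 counts in replicate 1 and 4291 in replicate 2. The 5 medulla genes summed to 339.4 TPM in replicate 1 and 4492 in replicate 2. The sums here were not rescaled for the differing nuclear totals. The summed TPM of 5 fat markers was 467.1 in replicate 1 and 3068 in replicate 2, of 5 skeletal muscle markers 11.07 and 322.4, and of 5 erythroid markers 49.25 and 2973. All 5 fat markers, 3 of the muscle and 3 of the erythroid markers also stood at 1 TPM or more in each library. That level alone does not single out adrenal tissue. Summed over 5 genes each, kidney markers stood at 0.15 and 0.38 with 3 genes at 0 in both libraries, and liver markers at 0.25 and 2.05. The part of these other tissues in any level below was not tested. In such bulk RNA, fewer cells of a type and less RNA per cell cannot be told apart.

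The 46 genes were broadly expressed. A level of 1 TPM was reached in each library by 41 of 46 genes (89.1%), against 21.0% of all Ensembl genes and 40.9% of protein-coding genes. In replicate 2 all 46 reached it. The 5 that did not in replicate 1 were Clpp at 0.71 TPM, Timm10 at 0.72, Htra2 at 0.54, Tomm40 at 0.14 and Timm13 at 0.03. With nuclear-rescaled TPM 44 of 46 reached 1 in both libraries, against 28.0% of all Ensembl genes and 53.3% of protein-coding genes. The genes together took 146520 counts in replicate 1 and 135646 in replicate 2, or 1.105% and 0.922% of the nuclear counts.

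The median level was 13.61 TPM in replicate 1 and 76.67 TPM in replicate 2. Levels ran from 0.03 to 789.99 TPM in replicate 1, a span of 14.68 on the log2 scale, and from 15.93 to 1188.46 TPM in replicate 2, a span of 6.22. The genes were thus much further apart in the first library than in the second: the SD of log2 TPM was 2.89 and 1.29. As deposited, 42 of 46 genes had the higher TPM in replicate 2, and after nuclear rescaling 27 of 46 did. Across the 46 genes, Spearman's correlation of TPM between the libraries was 0.43, against 0.76 over 16392 nuclear genes. These points share their 2 libraries and are not independent, so the correlations are descriptions. A rank correlation also depends on how far apart the levels lie, and the sets of genes were not matched for this. The log2 ratio of scaled counts between the libraries, described below, had an SD of 2.35 over the 46 genes and 2.37 over all genes.

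**Figure D1:**
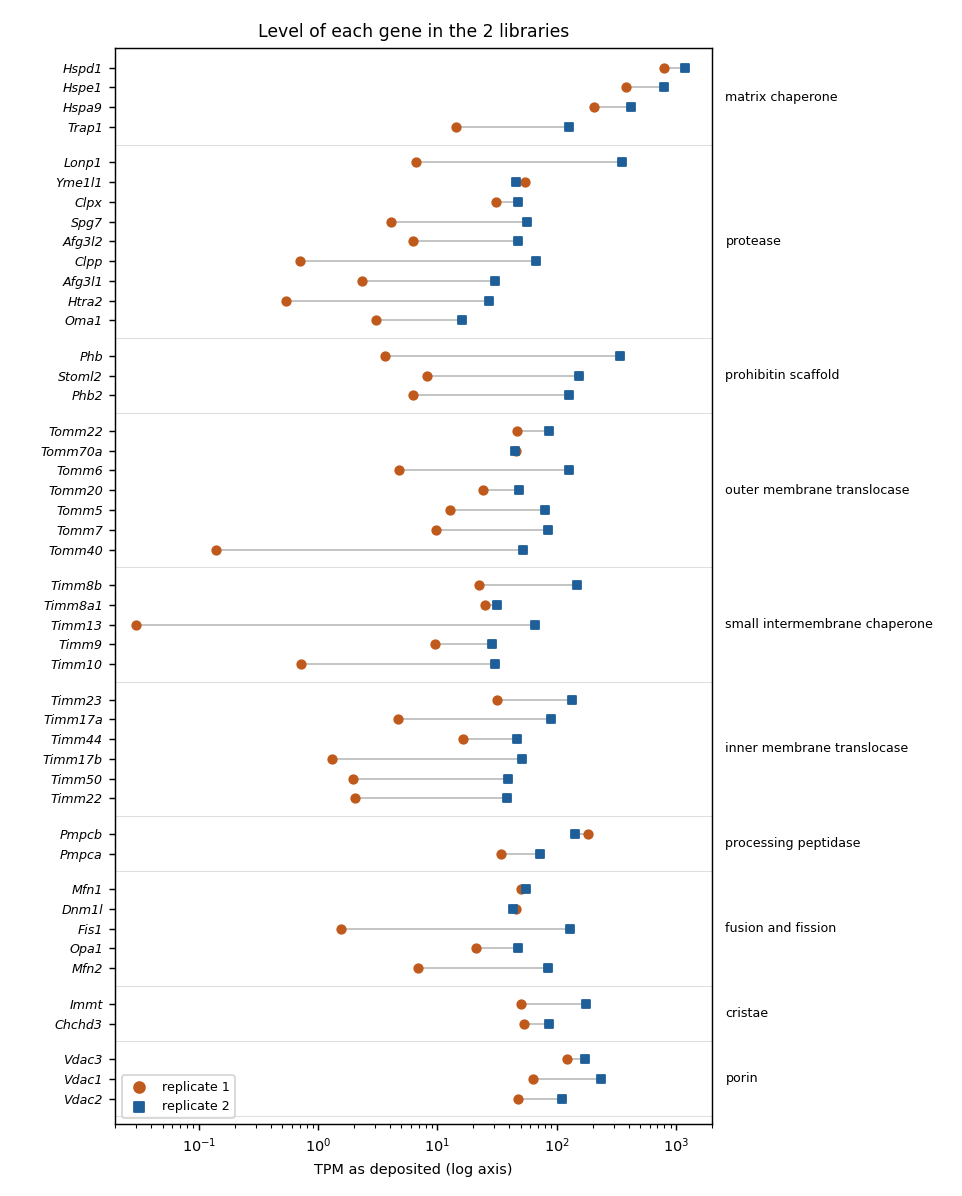
TPM as deposited (log axis) of each of the 46 genes in replicate 1 (circles) and replicate 2 (squares), grouped by role and ordered within a role by mean nuclear-rescaled TPM, with a grey line joining the libraries. Hspd1, Hspe1 and Hspa9 lead in both libraries, and the widest gap is that of Timm13, at 0.03 and 66.12 TPM.

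The matrix chaperones led the set. Hspd1 (Hsp60), which forms the folding chamber of the matrix, had 789.99 TPM in replicate 1 and 1188.46 in replicate 2. Its lid, Hspe1 (Hsp10), had 383.15 and 796.49 TPM, and Hspa9 (mortalin), the Hsp70 that pulls proteins through the inner membrane and starts their folding, had 203.72 and 416.15. These 3 genes held the first 3 places among the 46 in both libraries and together 56.0% and 37.4% of the TPM of the set. Their means were 989.2 ± 281.8, 589.8 ± 292.3 and 309.9 ± 150.2 TPM (SD, n = 2 technical replicates). Across libraries their levels overlapped: Hspe1 in replicate 2 was above Hspd1 in replicate 1, and Hspa9 in replicate 2 above Hspe1 in replicate 1. Among nuclear genes Hspd1 ranked 10 in replicate 1 and 33 in replicate 2, Hspe1 ranked 30 and 71, and Hspa9 ranked 97 and 206. Trap1, the mitochondrial Hsp90, stood far lower, at 14.45 and 126.8 TPM.

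Hspd1 and Hspe1 lie next to each other on chromosome 1 in divergent orientation. In GENCODE M21 on GRCm38, Hspd1 (ENSMUSG00000025980) covers chr1:55077835-55088243 on the minus strand and Hspe1 (ENSMUSG00000073676) chr1:55088132-55091307 on the plus strand. The annotated spans overlap at their 5′ ends, and whether the authors counted by strand is not given in the sources used here. RefSeq (GRCm38.p6) gives a promoter window of 300 bases for Hspe1 and 2 such windows for Hspd1. The second Hspd1 window overlaps the Hspe1 window by 285 bases, with the starts 216 bases apart. The Hspe1 window, at chr1:55087898-55088197 on the plus strand, is shown because both genes share it and because it holds the letters of a heat shock element, searched as the units TTC, GAA and TTC with 2 free bases between neighbours. Capitals mark the bases at chr1:55088059-55088076, in which 2 overlapping matches lie, 1 on each strand. The last line gives the same bases as read toward Hspd1.
Hspe1 promoter: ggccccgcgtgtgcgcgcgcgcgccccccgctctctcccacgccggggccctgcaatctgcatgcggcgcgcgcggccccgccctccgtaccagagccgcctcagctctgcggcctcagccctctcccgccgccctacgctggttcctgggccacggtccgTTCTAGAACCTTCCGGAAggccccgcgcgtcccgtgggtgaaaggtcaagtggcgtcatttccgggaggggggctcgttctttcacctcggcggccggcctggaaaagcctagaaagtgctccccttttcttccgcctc
Hspd1 strand: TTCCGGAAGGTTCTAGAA

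The match begins 89 bases before the Hspe1 start and 144 bases before that Hspd1 start. The other Hspd1 window, chr1:55088194-55088493, holds no match of the heat shock element. With the GENCODE span of Hspd1 given above, the matched bases lie inside the gene and not upstream of it. Letters of this motif on either strand occurred in 198 of 32851 RefSeq promoter windows of the same length (0.603%). Of the 46 genes 40 had such a window, with 47 windows in all, and 3 of the 47 (6.38%) held it: those of Hspd1, Hspe1 and Timm9. The Hspd1 and Hspe1 windows overlap and hold the same site, so 1 stretch of DNA was counted under both. Overlapping windows were counted separately for the other patterns too. The core letters known for nuclear respiratory factor 1, GCGC and again GCGC after 2 free bases, stood in 11 of the 47 windows (23.4%) and in 6.23% of all windows. Windows with them belonged to Afg3l1, Hspd1, Hspe1, Immt, Oma1, Opa1, Phb, Spg7, Timm8b and Tomm20. The ETS-type core CCGGAAGT stood in 9 windows (19.1%) against 3.89% of all, those of Fis1, Mfn1, Phb2, Pmpcb, Stoml2, Timm10, Timm23 and Tomm70a. No gene was in both of these lists. The ETS core shares the letters CCGGAA with the heat shock site shown above, but its whole run of letters was in no window of Hspd1 or Hspe1. With its middle bases free, the GCGC pattern also matches a plain run of alternating G and C, such as the Hspe1 window holds. The windows compared were not matched for GC content. All 3 patterns were searched on both strands, and a match describes letters, not binding. No binding data were analysed here.

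Among the proteases the order of levels differed between the libraries. Yme1l1, the inner membrane protease that faces the intermembrane space, led in replicate 1 with 53.76 TPM and had 45.88 in replicate 2. Lonp1, the main soluble protease of the matrix, had 6.63 TPM in replicate 1 and led in replicate 2 with 351.04, where it was the fourth gene of the whole set. The barrel of the second matrix protease, Clpp, had 0.71 and 66.81 TPM, and its unfoldase partner Clpx had 31.01 and 47.46. Of the matrix-facing inner membrane protease, Afg3l2 had 6.29 and 47.27 TPM, Spg7 (paraplegin) 4.07 and 56.28, and Afg3l1 2.34 and 30.63. Oma1, which cleaves Opa1 under stress, was the lowest of all 46 in replicate 2, with 3.03 and 15.93 TPM. Htra2, a serine protease of the intermembrane space, had 0.54 and 26.96 TPM. In nuclear-rescaled TPM averaged over both libraries, Oma1 (21.6), Htra2 (23.4) and Timm10 (26.8) were the lowest of the set.

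The prohibitin scaffold, a ring in the inner membrane that holds the proteases, was low in replicate 1 and high in replicate 2 throughout. Phb had 3.65 and 337.54 TPM, Phb2 had 6.21 and 126.1, and the related Stoml2 had 8.17 and 155.12. The 3 genes held 0.7% of the set's TPM in the first library and 9.6% in the second. Phb and Phb2 assemble with each other, yet Phb was at 0.588 times the level of Phb2 in replicate 1 and at 2.68 times in replicate 2. On protein-coding transcripts alone, Phb had 3.56 and 230.3 TPM and Phb2 5.22 and 117.4.

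In the outer membrane translocase the presequence receptor Tomm20 had 23.96 and 48.55 TPM and its partner receptor Tomm22 had 46.79 and 86.37. Tomm70a, the receptor for carrier proteins, had 45.28 and 44.41 TPM as deposited, but 258.8 and 72.05 after nuclear rescaling. Tomm40, the channel itself, had 0.14 TPM in replicate 1 and 52.22 in replicate 2. Of the small subunits around the channel, Tomm5 had 12.76 and 80.25 TPM, Tomm6 had 4.77 and 126.98, and Tomm7 had 9.74 and 84.59. In replicate 2 the 7 subunits lay between 44.41 and 126.98 TPM, whereas in replicate 1 the channel lay far below its receptors.

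The small chaperones of the intermembrane space showed the same contrast. Timm8b had 22.28 and 149.03 TPM, and Timm8a1, the X-linked member of the family, 25.24 and 31.5. Timm13, the partner of the Timm8 proteins, had 0.03 TPM from 1 count in replicate 1 and 66.12 TPM from 854 counts in replicate 2. Timm9 and Timm10, which form a hexamer that escorts carrier proteins, had 9.57 and 28.86 TPM, and 0.72 and 30.45 TPM. In the second library Timm9 and Timm10 were nearly level; in the first they were not.

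Of the inner membrane translocases, the channel subunit Timm23 had 31.77 and 134.81 TPM. Its partner Timm17a had 4.68 and 88.78 TPM and the X-linked paralog Timm17b 1.3 and 50.88. Timm44, which anchors the import motor, had 16.25 and 46.68 TPM, and the receptor Timm50 had 1.97 and 38.94. The channel of the carrier pathway, Timm22, had 2.04 and 38.56 TPM. Both subunits of the processing peptidase were expressed: Pmpca had 34.21 and 73.09 TPM and the catalytic Pmpcb 184.0 and 141.83. Pmpcb was the fourth gene of the set in replicate 1, but with only transcripts annotated as protein-coding counted, a choice made after seeing the data, it had 34.69 TPM there and was the twelfth.

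Fusion and fission genes had similar levels to each other in replicate 2 and not in replicate 1. The outer membrane fusion GTPase Mfn1 had 50.44 and 55.57 TPM, its paralog Mfn2 6.87 and 84.71, and Opa1, the fusion GTPase of the inner membrane, 21.22 and 47.05. Dnm1l (Drp1), the fission GTPase, had 45.48 and 43.37 TPM, and Fis1, a small outer membrane protein linked to fission, 1.56 and 128.85. Of the cristae organisers, Immt (Mic60) had 49.74 and 176.86 TPM and Chchd3 (Mic19) 53.02 and 86.87. The porins, which let metabolites through the outer membrane, were among the higher genes in both libraries. Vdac1 had 63.77 and 236.26 TPM, Vdac2 had 47.31 and 111.23, and Vdac3 had 122.43 and 173.5. After the 3 chaperones, Pmpcb (641.0) and Vdac3 (490.7) had the highest mean nuclear-rescaled TPM, Pmpcb with the noncoding part given above. By mean TPM as deposited, Lonp1 (178.8) and Phb (170.6) stood above Pmpcb (162.9), Vdac1 (150.0) and Vdac3 (148.0), so the order below the chaperones depended on the scale.

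The ratio of TPM between partner genes was set side by side in the 2 libraries. Over 24 pairs of partners or paralogs, the same gene was the higher one in both libraries in 13 pairs, and the order changed in 11. The 2 libraries gave log2 ratios less than 1 apart in 8 pairs, and the median gap was 1.78. Hspd1 was above Hspe1 by 2.06 times in replicate 1 and 1.49 times in replicate 2, which averaged 0.81 ± 0.33 on the log2 scale (SD over the 2 libraries). Tomm20 was at 0.512 and 0.562 times Tomm22, the closest of all pairs between the libraries. Vdac2 was at 0.386 and 0.641 times Vdac3, and Lonp1 at 9.34 and 5.25 times Clpp.

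In other pairs the ratio differed widely between the libraries, and in the first 4 given here the order changed. Dnm1l was at 29.15 times Fis1 in replicate 1 and at 0.337 times in replicate 2. Mfn1 was at 7.34 and 0.656 times Mfn2 (on protein-coding transcripts alone, Mfn1 had 15.91 and 41.57 TPM and Mfn2 6.87 and 84.72). Clpp was at 0.0229 and 1.41 times Clpx, and Tomm20 at 171.1 and 0.93 times Tomm40. The widest gap was that of Timm8b to Timm13, which kept its order at 742.7 and 2.25 times, with 1 count of Timm13 behind the first value. In 19 of the 24 pairs the partner with the lower GC content was the relatively higher one in replicate 1, among them all 5 just named. Their GC contents differed by 13.7, 8.6, 12.7, 11.6 and 10.7 percentage points. Hspd1 and Hspe1 differed by 0.5 points and Tomm20 and Tomm22 by 1.3. GC content did not separate every pair: Phb and Phb2 differed by 1.4 points and changed order, as did Timm8a1 and Timm8b, which differed by 1.0.

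**Figure D2:**
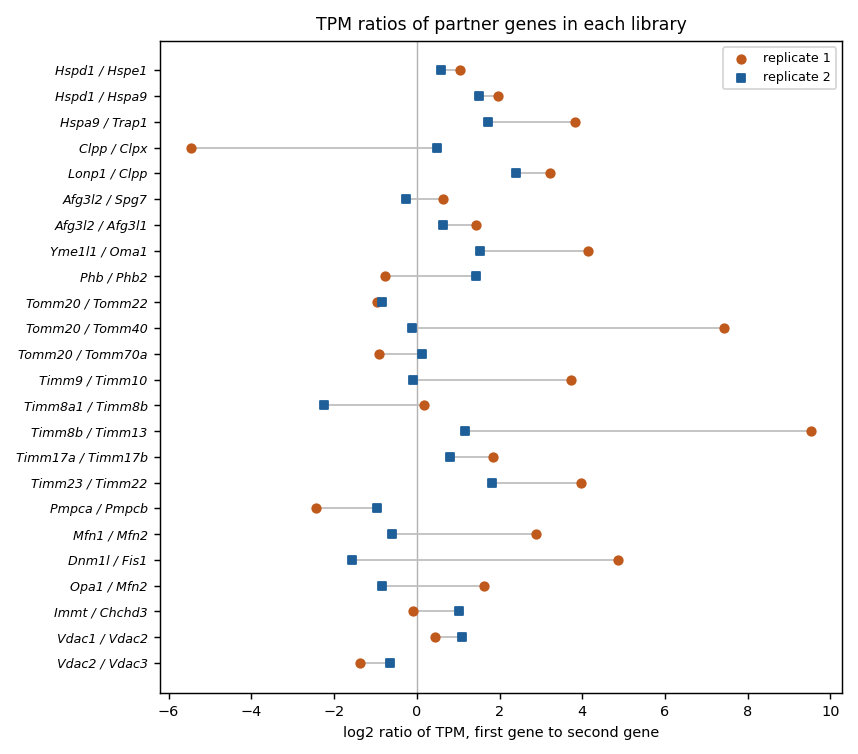
Log2 ratio of TPM of the first to the second gene for 24 pairs in replicate 1 (circles) and replicate 2 (squares), where 0 means equal levels. Points on opposite sides of 0 mark the 11 pairs whose order changed, and the widest gap is Timm8b to Timm13.

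Counts were then set against each other gene by gene. Expected counts were rounded, scaled with TMM, and compared by the exact binomial test (two-sided) for the 14358 genes whose counts summed to 20 or more. A gene was called at a Benjamini-Hochberg adjusted p under 0.05 and a fold of at least 2. All 46 genes were tested: 20 were called higher in replicate 2, 6 were called lower and 20 were not called. Over all genes tested 36.4% were called higher and 27.8% lower. The median log2 ratio of replicate 2 to replicate 1 was 0.55 over the 46 genes and 0.10 over all. All 3 genes of the prohibitin scaffold were called higher, as were 6 of 9 proteases, 3 of 7 outer membrane and 3 of 6 inner membrane translocase subunits. No cristae or processing peptidase gene was called in either direction. Scaling by total counts moved the median over all genes from 0.10 to 1.24 and gave 28 genes of the set higher and 0 lower, beside 7769 and 567 of the 14358 genes tested. Scaling by nuclear totals gave 22 and 5, beside 5795 and 2978. With a smoothed length trend removed 16 of the set were called higher and 16 lower, beside 4454 and 4856 of all.

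The 5 largest ratios upward were those of Timm13, Tomm40, Htra2, Clpp and Fis1. Timm13 had 1 count in replicate 1 and 854 in replicate 2, a log2 ratio of 8.72 with a 95% exact interval from 6.82 to 14.61. Tomm40 had 10 and 900 counts (5.99, interval 5.17 to 7.12) and Htra2 had 12 and 487 (4.85, interval 4.09 to 5.87). Clpp had 24 and 848 counts (4.68, interval 4.13 to 5.36) and Fis1 had 31 and 990 (4.54, interval 4.05 to 5.13). These are genes of different roles, a chaperone, a channel, 2 proteases and a fission factor, and each had few counts in replicate 1. Phb followed with 192 and 3922 counts (3.92, interval 3.71 to 4.14) and Timm10 with 9 and 190 (3.89, interval 3.01 to 5.12). Lonp1, with 611 and 12150 counts, had a ratio of 3.88 (interval 3.76 to 4.0).

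The 6 genes called lower were Yme1l1, Dnm1l, Tomm70a, Timm8a1, Vdac3 and Hspd1. Yme1l1 had 7951 and 2524 counts, a log2 ratio of -2.09 with an interval from -2.15 to -2.02. Dnm1l had 5794 and 2076 counts (-1.91, interval -1.99 to -1.84), and Tomm70a had 5398 and 1989 (-1.87, interval -1.95 to -1.80). Timm8a1 had 1033 and 484 counts (-1.53, interval -1.69 to -1.37) and Vdac3 had 5010 and 2664 (-1.34, interval -1.41 to -1.28). Hspd1, with 58629 and 32773 counts, had a ratio of -1.27 (interval -1.29 to -1.25). All 6 had more raw counts in replicate 1, although that library had the smaller nuclear total.

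Hspe1 (-0.79), Hspa9 (-0.81), Clpx (-0.85), Tomm20 (-0.83), Tomm22 (-0.82), Opa1 (-0.93) and Mfn1 (-0.96) had ratios below 0 that did not reach the 2-fold minimum. Immt had 3575 and 4880 counts and a ratio of 0.02 (interval -0.05 to 0.08), and Pmpca had 1921 and 2572 and a ratio of -0.01 (interval -0.10 to 0.07). For these 2 genes, by this test, the adjusted p was 0.654 and 0.805. With no fold minimum they were the only 2 of the 46 genes without a call. In that setting most genes were called: 6590 of all 14358 tested were higher and 6002 lower.

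The direction of these ratios followed the GC content of the genes. The 46 genes ranged from 38.2% to 60.5% GC, with a median of 49.3%, against a median of 49.9% over all genes tested. All 4 genes under 42% GC (Yme1l1, Tomm70a, Dnm1l and Vdac3) were called lower, with a median log2 ratio of -1.89, and of all genes of that GC range 94.5% were called lower, with a median of -1.90. All 12 genes at 54% GC or more were called higher, with a median of 3.37, and over all genes of that range 89.1% were called higher, with a median of 3.25. Between 45% and 48% none of 9 genes was called, where 2.11% of all genes were called higher and 35.7% lower. Spearman's correlation of the ratio with GC content was 0.88 over the 46 genes and 0.88 over 14250 nuclear genes. Both are descriptions across genes that share the same 2 libraries. The set thus followed the trend of all genes, and the part of GC content in any single ratio cannot be told apart from other differences between the libraries.

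The letters of the extremes are shown as stretches of 120 coding bases from GENCODE M21, chosen in each gene for a GC content close to that of its whole leading transcript. They come from the 2 genes of lowest GC content, Yme1l1 and Tomm70a, both called lower, and the 2 of highest, Timm50 and Timm13, both called higher, with G and C in capitals. The stretches hold 38.3%, 40.8%, 58.3% and 58.3% G and C. The whole coding sequences hold 40.1%, 46.8%, 58.6% and 61.4%, so the Tomm70a stretch is lower than its coding sequence. The GENCODE M21 transcript of Tomm70a has 5964 bases, and the leading one as deposited has 3778.
Yme1l1: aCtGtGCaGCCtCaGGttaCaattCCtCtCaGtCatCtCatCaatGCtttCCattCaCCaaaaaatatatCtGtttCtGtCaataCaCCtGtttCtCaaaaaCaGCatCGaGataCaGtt
Tomm70a: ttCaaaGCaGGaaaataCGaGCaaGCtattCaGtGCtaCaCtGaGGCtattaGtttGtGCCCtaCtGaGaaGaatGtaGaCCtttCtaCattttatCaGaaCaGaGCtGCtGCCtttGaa
Timm50: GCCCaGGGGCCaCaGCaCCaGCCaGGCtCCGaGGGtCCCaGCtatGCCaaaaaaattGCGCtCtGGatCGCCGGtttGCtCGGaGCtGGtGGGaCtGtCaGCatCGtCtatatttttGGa
Timm13: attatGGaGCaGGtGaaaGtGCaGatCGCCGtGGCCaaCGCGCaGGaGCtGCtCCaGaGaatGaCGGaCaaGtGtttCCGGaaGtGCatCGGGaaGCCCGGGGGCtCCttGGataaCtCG

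**Figure D3:**
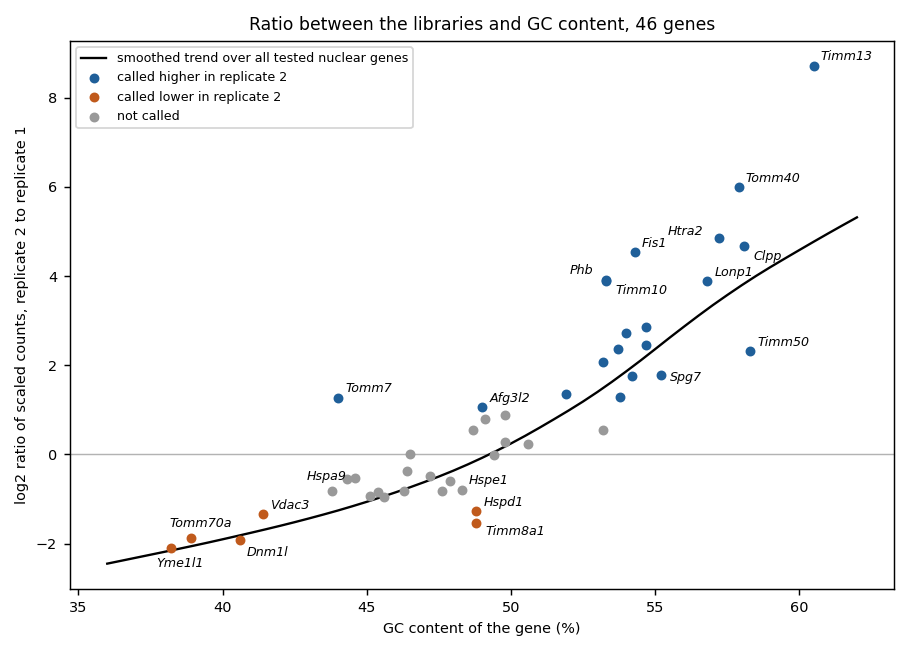
Log2 ratio of scaled counts, replicate 2 to replicate 1, of the 46 genes against gene GC content in percent, coloured by call, with the smoothed trend over all tested nuclear genes as a line. The 4 genes under 42% GC are all called lower and the 12 genes at 54% or more all higher, while Tomm7, Fis1 and Timm13 lie above the line and Timm50 and Timm8a1 below it.

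With the smoothed trend removed, 8 of the 46 genes were called higher and 3 lower, against 13.5% and 12.6% of all genes tested. Of the 20 genes called higher before, 8 remained, 11 were no longer called, and Timm50 was called lower. Of the 6 called lower, Hspd1 and Timm8a1 remained and 4 were no longer called. The SD of the log2 ratio over the 46 genes was 2.35 before and 1.08 after (2.37 and 1.29 over all genes). Yme1l1 moved from -2.09 to 0.07, Dnm1l from -1.91 to -0.10, Tomm70a from -1.87 to 0.19 and Vdac3 from -1.34 to 0.35. Lonp1 moved from 3.88 to 0.63 and Clpp from 4.68 to 0.85, so neither matrix protease was called any longer.

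The 8 genes still called higher were Timm13 at 3.94, Fis1 at 2.55, Tomm7 at 2.53, Phb at 2.39, Timm10 at 2.37, Tomm40 at 2.25, Htra2 at 1.40 and Afg3l2 at 1.13. The 3 called lower were Timm50 at -1.59, Timm8a1 at -1.38 and Hspd1 at -1.14. Tomm7 was the one gene called higher at a GC content under 45%, with 44.0%, 303 and 987 counts and a ratio of 1.27 before the trend was removed. Timm50, at 58.3% GC with 84 and 570 counts, had a ratio of 2.32 before. By 3 ways of removing GC content (alone, with length, and with GC content weighted by transcript counts), 7 genes kept the call higher: Tomm7, Timm10, Phb, Fis1, Htra2, Tomm40 and Timm13. Over all 14358 genes tested these ways called 1935, 1724 and 1599 higher. How many of all genes kept the call by all 3 was not counted, so the 7 cannot be set against that share. Only Timm8a1 kept the call lower among the 6 so called at first, since Hspd1 was at -0.64 with weighted GC content. Timm50, called higher at first, was called lower by all 3. Of the prohibitin scaffold only Phb kept its call. With the length trend alone removed Tomm7 was at -0.13 and not called. Of the 7 genes Timm10, Timm13, Tomm40 and Htra2 had at most 12 counts in replicate 1.

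**Figure D4:**
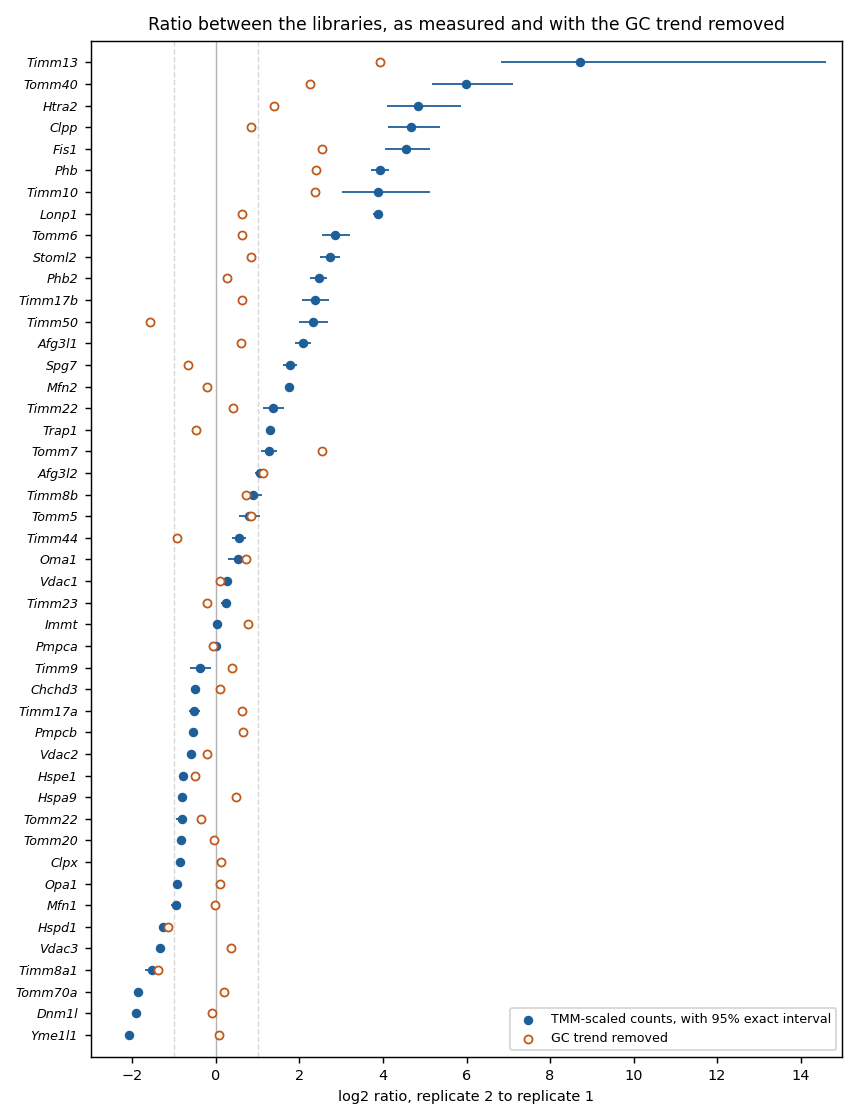
Log2 ratio of replicate 2 to replicate 1 for the 46 genes in order of the ratio: filled points with bars give TMM-scaled counts with the 95% exact interval (counting error only), open points the ratio with the GC trend removed, and dashed lines mark a fold of 2. Most open points lie closer to 0 than the filled ones, Timm50 lies on the other side at -1.59, and Tomm7 lies further out at 2.53.

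Transcript shares were read for the 42 genes with at least 20 counts in each library, of which 8 have 1 transcript in the tables. The same transcript led in both libraries in 31 of 42, which were 23 of the 34 genes with several transcripts. In 10 of them it held over 90% in both. Hspd1 was carried by 1 protein-coding transcript, with 99.99% and 98.51% of its TPM, and Hspe1 likewise with 99.3% and 99.27%. Mfn2 (97.27% and 93.22%) and Yme1l1 (97.95% and 97.18%) were as uniform. Opa1, whose protein forms differ by splicing, kept its leading transcript at 69.07% and 50.92%. The leading Phb transcript went from 97.43% in replicate 1 to 45.97% in replicate 2, beside 192 and 3922 counts of the gene. A processed transcript of 414 bases held 31.49% of Phb in replicate 2 and 0.0% in replicate 1.

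The leading transcript differed in 11 genes: Spg7, Timm44, Timm9, Mfn1, Stoml2, Pmpcb, Timm17b, Afg3l1, Immt, Chchd3 and Timm17a. In replicate 1 the leader of 5 of them was annotated as other than protein-coding. For Pmpcb it was a retained-intron transcript of 378 bases with 75.84% of the TPM there and 0 counts in replicate 2, where the protein-coding form of 1615 bases held 95.78%. For Mfn1 it was a retained-intron transcript of 246 bases with 39.25%, from 45.7 counts. In Timm44 and Chchd3 a processed transcript led with 70.44% and 55.55%, and in Afg3l1 a transcript annotated for nonsense-mediated decay with 86.27%; each stood at 0.0% in replicate 2. Per length, the 45.7 counts of that short Mfn1 transcript came to 19.8 TPM, above the 11.98 TPM from 1034.7 counts of a protein-coding one of 2789 bases.

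Timm17a went the other way. A protein-coding transcript of 7280 bases held 96.31% in replicate 1 and 8.31% in replicate 2, where a retained-intron transcript of 565 bases led with 63.06%. The abundance-weighted length of the gene was 7032 bases in the first library and 1095 in the second. Its counts, 1063 and 1003, gave a log2 ratio of -0.52, and its nuclear-rescaled TPM gave 2.43, in the opposite direction. Timm44 also differed in sign, at 0.55 by counts and -0.29 by nuclear-rescaled TPM. For these 2 genes no direction between the libraries is given here.

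**Figure D5:**
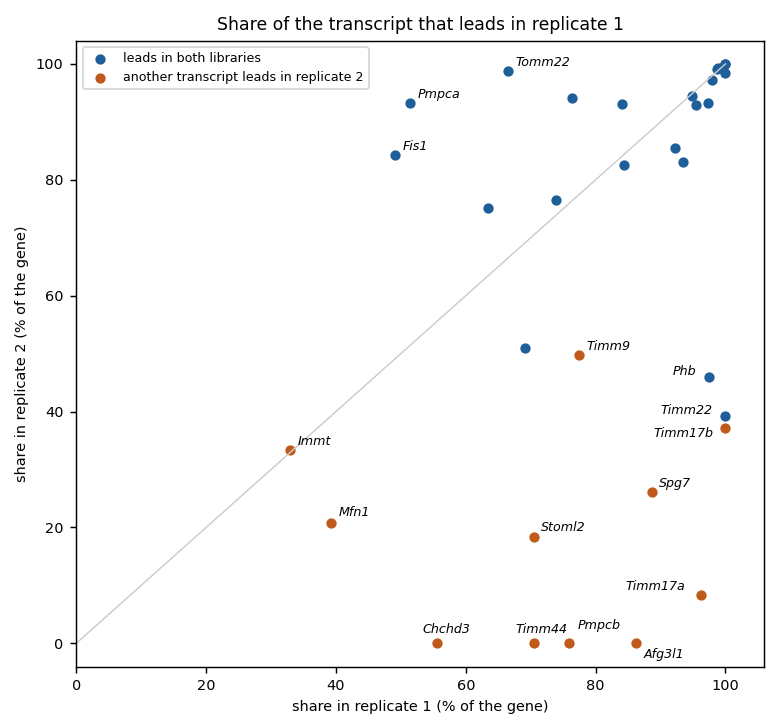
Share of the transcript that leads in replicate 1, in percent of the gene's TPM, in replicate 1 (x) and replicate 2 (y), for the 34 genes with several transcripts and at least 20 counts in each library. Points near the diagonal kept their share, and the 11 genes in the second colour had another leader in replicate 2, with Pmpcb, Timm44, Chchd3 and Afg3l1 at 0 on the y axis.

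Near-identical copies under other gene names, at 95% identity over 50% of the longest transcript, were found for 4 genes. A copy that was itself quantified could take part of the counts. Hspd1 has the processed pseudogene Hspd1-ps3, 99% identical over 71.1% of the longest transcript, with 376 and 87 counts. Timm23 has 5 copies, of which the protein-coding Gm10273 had 28 and 42 counts. Tomm6 shares sequence with the protein-coding Gm21981, which had 0 and 15 counts. Both are on chromosome 17, and whether they overlap was not checked. Stoml2 shares sequence with the pseudogene Gm5626, which was not among the genes quantified. Expected counts were whole within 0.005 in both libraries for 38 genes. The other 8 were Hspd1, Tomm20, Timm8a1, Timm23, Vdac3, Phb, Phb2 and Tomm6. Tomm20, Timm8a1, Vdac3, Phb and Phb2 had no copy by this rule, so it may miss sequences that share counts. Why their counts were not whole was not tested.

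Other genes of the same pathways were read the same way. Of 51 listed genes that are not among the 46, all were found and 46 reached 1 TPM in each library. Of all Ensembl genes 21.0% reached it, and of protein-coding genes 40.9%. The highest by mean TPM were Ghitm, an inner membrane protein, with 188.87 and 357.72 TPM, Dnajc15, a co-chaperone of the import motor, with 133.69 and 178.31, and Minos1 (Mic10), a cristae protein, with 60.69 and 229.14. Of the 51, 21 were called higher in replicate 2, 9 lower and 21 not, with a median log2 ratio of 0.50. Over all genes tested 36.4% were called higher and 27.8% lower, with a median of 0.10. With the GC trend removed 9 of the 51 were called higher and 5 lower, with a median of 0.14. Of all genes tested 13.5% were then called higher and 12.6% lower, with a median of -0.03. The largest ratio upward was that of Chchd6 (Mic25), with 6 and 292 counts and a log2 ratio of 5.06, and the largest downward that of Apoo (Mic26), with 1273 and 407 counts and a ratio of -2.08. With the GC trend removed these were 2.47, still called, and -0.90, no longer called.

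The list also held 3 transcription factor genes of the mitochondrial stress response. Atf5 had 1.27 and 34.71 TPM, Atf4 had 17.02 and 124.68, and Ddit3 (Chop) had 1.07 and 29.79. All were called higher, with log2 ratios of 2.99, 1.03 and 2.75. With the GC trend removed Atf5 was at -2.08 and Atf4 at -1.41, both called lower, and Ddit3 at 1.89, called higher. The direction of Atf5 and Atf4, but not that of Ddit3, turned with that step.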

How the data were processed

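Per the labels, 2 technical replicate libraries of 1 biological sample were measured. The deposited gene and transcript tables hold expected counts (estimated fragments), TPM and FPKM as the authors computed them, per the file headers. The deposited posterior TPM interval bounds were treated as a score and not used for calls, and the authors' transcript shares are in percent. Notes deposited with the files name mm10 and GENCODE M4. Which aligner and counter were run is not given in the sources used here. Coordinates, sequences and GC content (length-weighted over transcripts) came from GENCODE M21 on GRCm38, and promoters from RefSeq.

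Rounded counts of 43346 Ensembl genes (total counts 28267651 and 17376660) were scaled with TMM (edgeR 4.0.16, R 4.3.3), and the exact binomial test (scipy 1.17.1) ran on 14358 genes with a prior count of 0.5 in ratios. DESeq2 1.42.0 gave size factors for an alternative. GC and length trends were lowess fits (statsmodels 0.14.6, span 0.3) over nuclear genes, entered as an offset. Copies were found with BLAST 2.17.0, at 95% identity over 50% of the longest transcript. The test was tried on simulated data. Mitochondrial genes (37) and their 15 nuclear copies (90% identity) were left out of nuclear sums. Intervals cover counting error only.

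The 46 genes, the lists and the tests were chosen with earlier results of these data known. All 46 were to be named, with statistics for the 5 highest and 3 lowest by mean nuclear-rescaled TPM, the 5 largest called ratios in each direction, and examples of calls lost without the GC trend; of other pathway genes, the 3 highest and the largest ratio in each direction. Atf4, Atf5 and Ddit3 were named outside this rule, after their values were seen. Alternatives varied scaling, GC content, length, prior count, fold minimum, count minimum and TPM minimum.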

Additional observations from a re-analysis of the deposited data

How the results depend on the processing

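No paired analysis was possible because both libraries belong to 1 group. The 20 genes called higher (5232 of all 14358 tested) became 8 with the GC trend removed (1935 of all), 8 with GC and length trends removed (1724) and 10 with count-weighted GC content (1599). The 6 called lower (3987 of all) became 3 with the GC trend removed (1815), 16 with the length trend removed (4856), 0 with total-count scaling (567), 18 with no fold minimum (6002) and 1 with a fold minimum of 4 (824). The median log2 ratio of 0.55 was 1.68 with total counts (1.24 over all genes, against 0.10), 0.49 with DESeq2 size factors, 0.83 with nuclear totals, 0.37 with the GC trend, -0.47 with the length trend, 0.18 with both and 0.25 with the count-weighted GC trend removed, 0.54 with a prior count of 5, 0.61 with no filter on low counts and 0.71 by nuclear-rescaled TPM, an alternative added after seeing the data. Of the 46 genes, 24 had 10 TPM in both libraries, and 41 to 46 had 1 TPM when either library was left out. With protein-coding transcripts only, also added after seeing the data, the mean TPM of Pmpcb went from 162.9 to 85.25 and that of Mfn1 from 53 to 28.74. Both shifts exceeded the SD over the 2 libraries. Shifts within that wide SD included Timm17a from 46.73 to 18.64, Phb from 170.6 to 116.93 and Timm44 from 31.46 to 20.46. A ratio is listed as reversed where its sign changed and the gene was called before or after the change of setting. Sign changes of genes called in neither setting are not listed. There were 9 of these with the GC trend removed, 9 with GC and length trends removed and 10 with count-weighted GC content. With the length trend removed there were 6, and with total counts 12. Reversed ratios with the GC trend removed were Trap1 -0.48, Yme1l1 0.07, Spg7 -0.68, Tomm70a 0.19, Timm50 -1.59, Mfn2 -0.22 and Vdac3 0.35. With GC and length trends removed they were Trap1 -0.51, Yme1l1 0.30, Spg7 -0.70, Phb2 -0.07, Tomm70a 0.34, Tomm6 -0.01, Timm44 -1.24, Timm50 -1.88, Mfn2 -0.03, Dnm1l 0.08 and Vdac3 0.06. With count-weighted GC content they were Yme1l1 0.03, Afg3l2 -0.06, Spg7 -1.07, Phb2 -0.63 and Timm50 -1.55, with the length trend removed Tomm7 -0.13 and Timm23 -1.12, and with total counts Pmpca 1.12. The cause was not tested. Timm13, Timm10, Tomm40 and Htra2 had 1, 9, 10 and 12 counts in replicate 1, which limits their ratios.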
